A study of Homo sapiens with 8 samples.

Results

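The response of skin fibroblasts to transforming growth factor beta 1 (TGFB1) alone was described from 4 of the 8 libraries of the series, taken by their treatment labels: 2 from cells given TGFB1 and DMSO, and 2 from vehicle controls given bovine serum albumin (BSA), citric acid and DMSO. The cells were CCD-1077Sk, a line of normal human skin fibroblasts used past passage 8, grown in high-glucose medium with serum and collected after 6 h. The 4 libraries not described for their own sake had celastrol, a plant triterpenoid, at 500 nM, with or without TGFB1, in a study that asked how celastrol alters expression mediated by TGFB1. The sources used here give neither the TGFB1 dose nor whether citric acid and BSA were in the TGFB1 medium. No label states that replicate libraries were grown as separate cultures. The p-values therefore reflect only variation among the libraries at hand, possibly technical, and 1 cell line stands for all skin fibroblasts.

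TGFB1 acts through a pair of receptor kinases. It binds TGFBR2, which activates TGFBR1, which in turn phosphorylates SMAD2 and SMAD3, and these enter the nucleus with SMAD4. In fibroblasts the pathway is best known for matrix and contractile genes, and it is held in check by inhibitors that it induces itself, such as SMAD7. Receptors, transporters, transcription factors and noncoding RNAs were examined here beyond the fibrosis genes, together with secreted ligands and intracellular regulators of signalling.

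The 4 libraries held 20716721 to 42518360 estimated reads, and a count of 0 allowed up to 1.8 to 4.24 normalized reads, a limit for counting error alone because the reads carry no molecular identifiers. Values are normalized reads per gene (reads divided by 1 size factor a library, not by gene length), and a change is the difference in log2(value + 1) between group means, with its standard error (SE). Genes were called at an adjusted p under 0.05 in a limma fit whose spread came from all 8 libraries, those with celastrol included. A gene was tested if it reached 10 normalized reads in any 2 of the 8, so some were tested only through celastrol libraries. Of the 22866 genes tested, 2937 were higher (12.8%) and 2427 lower (10.6%) with TGFB1, 23.5% in all. A fit of the 4 libraries alone called 1064 higher and 620 lower. In the fit over 8 libraries, past 2-fold, 714 were higher (3.12%) and 1033 lower (4.52%). Groups did not overlap for 57.6% of genes. Of all calls 54.8% were higher, which became 20.8% (1417 higher, 5399 lower) when libraries were scaled to a common total, shifting the median of all genes by -0.21, and 72.9% (4778 and 1775) with median centring (0.12). In a principal component analysis of the 4 libraries, 57.1% of the variance separated the groups. The next component, with 25.3%, put replicate 1 above replicate 2 in both groups. The libraries lay at 49.16 and -48.3 on it with TGFB1 and at 11.07 and -11.92 in controls. For genes of at least 50 normalized reads the median difference between libraries was 0.137 on the log2 scale with TGFB1 and 0.096 in controls. Fibroblast markers were all 14 measured, with a summed level of 496200 to 700100. Of 9 keratinocyte markers 5 were measured. TP63 was at 0 in all 4 libraries, but KRT10 had 879 to 1059 and DSP 1140 to 4061, and the family summed to 2095 to 5034. Endothelial markers (4 of 8 measured) summed to 52.71 to 98.87, and immune markers (5 of 8) to 248.8 to 370.4.

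**Figure D1:**
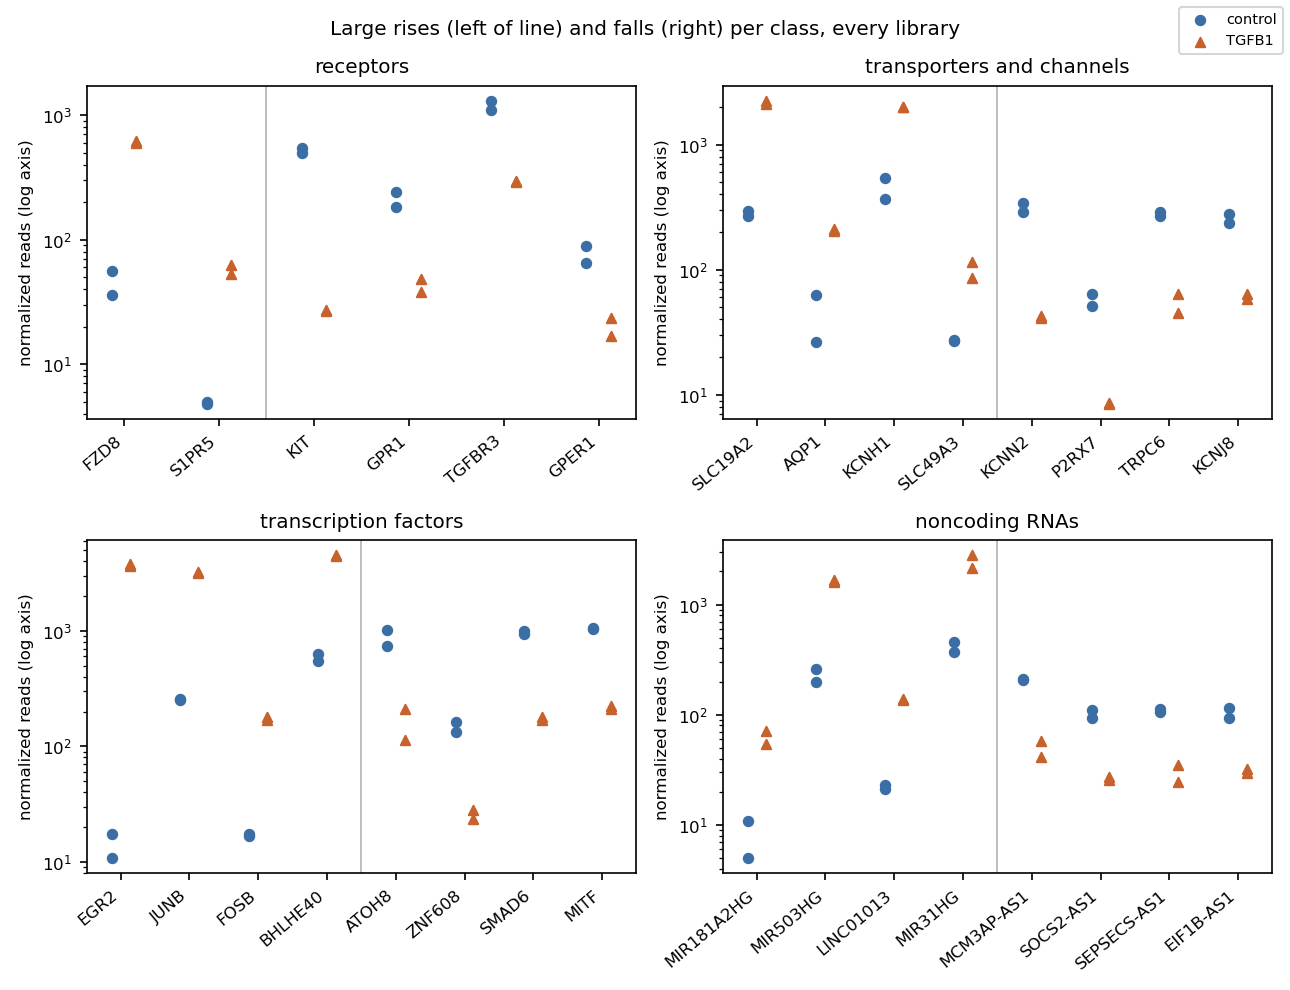
Normalized reads in each of the 4 libraries (log axis) for up to 4 large rises and 4 large falls of each class, with circles for control and triangles for TGFB1. The genes shown were chosen for groups that do not overlap, which held for 57.6% of all genes tested. Among them EGR2 has the widest gap, from 17.5 or less in the controls to 3647 or more with TGFB1.

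Genes of the TGFB pathway itself changed on both the activating and the inhibiting side. Of 30 genes of its core, all tested, 14 were higher and 7 lower (70.0% called, against 29.1% of protein-coding genes). Their median change was 0.37 against 0.00 over all genes. The ligand genes went apart. TGFB1 mRNA rose from 1461 and 1581 normalized reads in the 2 controls to 3669 and 4300.4 (1.39, SE 0.11, adjusted p = 4.83e-05), and TGFB2 rose by 1.21, while TGFB3 had 145 and 111 in controls and 42.4 and 30.7 with TGFB1 (-1.79). LTBP1 (0.97) and LTBP2 (2.33), whose proteins bind latent TGFB or matrix fibres, were higher, and LTBP3 (0.03) did not pass.

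Of the receptors, the signalling pair did not pass the threshold. TGFBR1 had 5867 and 4502 in controls and 7766 and 5948 with TGFB1 (0.40, SE 0.16, adjusted p = 0.101). It was called higher with the replicate block (adjusted p = 0.00122), with median centring (0.0341) and without TGFB1 replicate 2 (0.0379). TGFBR2 had 3793 and 3847 and 3888 and 3932 (0.03, SE 0.05, but -0.19 and called lower with a common total, adjusted p = 0.0321). TGFBR3 (chromosome 1, 91680343 to 91906335), which encodes betaglycan, a co-receptor that presents ligand, fell from 1088 and 1293 to 294 and 291 (change -2.02, SE 0.09, adjusted p = 2.73e-06). Betaglycan mRNA in either TGFB1 library was thus below that of both controls by far more than the replicates differed. The coreceptor endoglin (ENG) rose by 0.35, and that call was lost under scaling to a common total (adjusted p = 0.199), without a variance trend (0.0599) and without control replicate 1 (0.0535) or 2 (0.0519). BMPR2, a type II receptor for bone morphogenetic proteins (BMPs), rose from 11478 and 10353 to 27512 and 24844 (1.26, adjusted p = 9.67e-06).

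Among the SMADs, SMAD2 (-0.04) and SMAD4 (-0.01) did not pass, although both were called with a common total (adjusted p = 0.0239 and 0.0161). SMAD3 fell from 4322 and 3883 to 2377 and 2207 (-0.84, adjusted p = 0.00035). The inhibitory SMADs went in opposite directions. SMAD7, which blocks the TGFB receptor, rose from 1234 and 847 to 3439 and 3257 (1.71). SMAD6 (chromosome 15, 66702236 to 66782849), which mainly restrains BMP signalling, fell from 1001 and 928 to 181 and 168 (-2.46, SE 0.09, adjusted p = 9.39e-07). The BMP target genes ID1 (-1.18), ID3 (-0.74) and ID2 (-0.53) were lower too, and so was BMP4, the ligand, from 364 and 354 to 67.8 and 75. The ID2 call did not hold when control replicate 1 was left out (adjusted p = 0.16), without TGFB1 replicate 2 (0.125), with median centring (0.0591) and without a variance trend (0.106). Further inhibitors rose, among them PMEPA1 (4.25), SKIL (1.55), SKI (0.46) and the ubiquitin ligases SMURF1 (1.12) and SMURF2 (0.94). Also of the core, BAMBI (-0.45), TGIF1 (0.08) and TGIF2 (0.11) did not pass, although TGIF1 was called with median centring (adjusted p = 0.046). With only these 4 libraries in the fit, which leaves 2 residual degrees of freedom, the calls of SMAD7, ID1, ID3, ID2, TGFB3 and ENG were lost (adjusted p from 0.0551 to 0.184). Exon positions are shared with another gene by TGFB1, TGFB2, TGFB3, LTBP1, LTBP2, ENG, SMAD4, SMAD3, ID2, PMEPA1, SMURF1 and SMURF2, and reads there cannot be told apart.

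**Figure D2:**
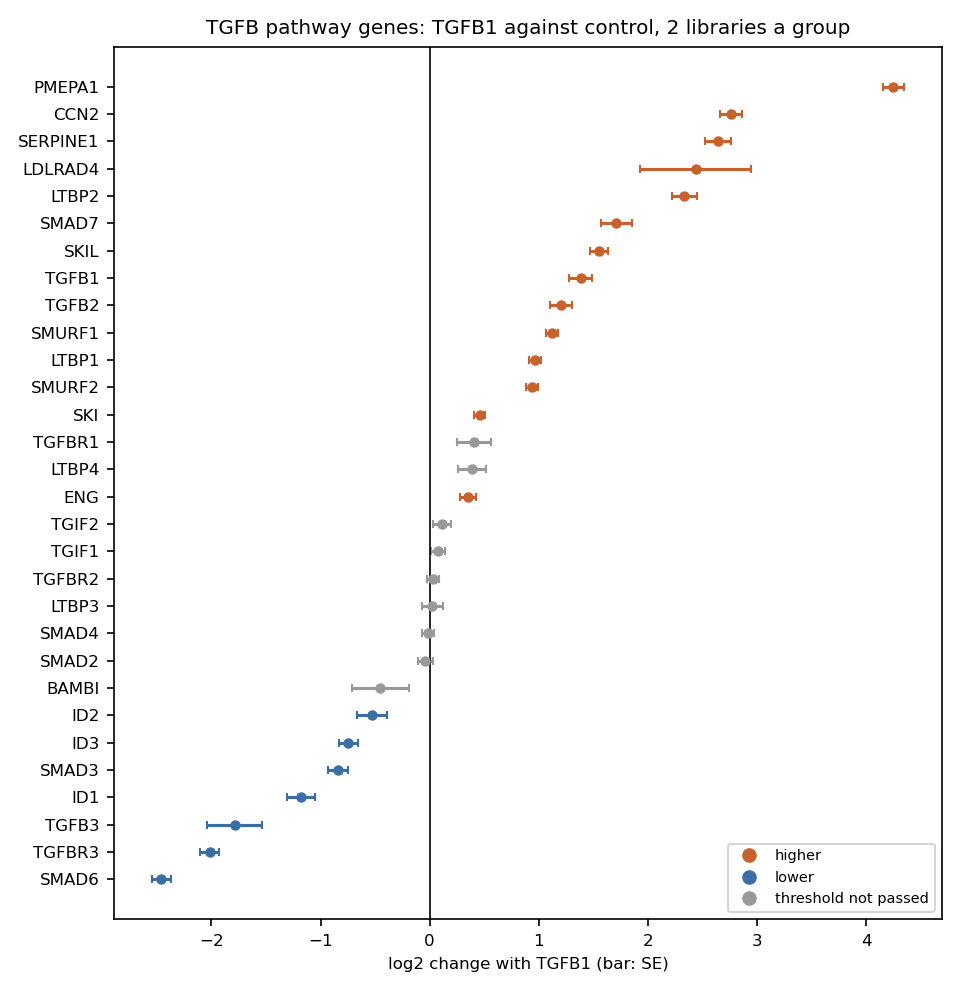
Change in log2(value + 1) with TGFB1 against control for the 30 genes of the TGFB pathway core, with bars for the SE of the fit and 2 libraries a group. PMEPA1 and CCN2 lie at the top, TGFBR2, SMAD2 and SMAD4 near 0, and SMAD6 and TGFBR3 at the bottom.

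Of 367 receptor genes tested, 71 were higher and 52 lower (33.5% called, against 23.5% of all genes and 29.1% of protein-coding genes), and their median change was 0.00, as over all genes. With a common total the receptors had 51 higher and 92 lower. FZD8 (chromosome 10, 35638249 to 35642278), a Frizzled receptor for Wnt ligands, went from 56.3 and 36 to 599 and 613 (3.72, SE 0.23, adjusted p = 1.44e-05). Another Frizzled gene, FZD2, fell from 2312 and 2367 to 1436 and 1364 (-0.74). S1PR5, a sphingosine 1-phosphate receptor, was near the detection limit in controls, at 5.0 and 4.8, and reached 62.1 and 52.8.

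The steepest fall of a receptor was that of KIT (chromosome 4, 54657918 to 54740715), the receptor tyrosine kinase for stem cell factor. KIT had 499 and 541 normalized reads in controls and 26.8 and 27 with TGFB1 (-4.22, SE 0.13, adjusted p = 4.97e-07). Both TGFB1 libraries were close together and far under the controls. GPR1, a chemerin receptor, fell from 184 and 239 to 38.1 and 47.9 (-2.27), and GPER1, which binds oestrogen (-1.88), and PTGFR, the receptor of prostaglandin F (-1.49), fell as well. The muscarinic receptor gene CHRM2 fell from 3473 and 3354 to 1518 and 1179.9 (-1.35). F2RL1, a receptor activated by proteases, rose from 309 and 323 to 740.1 and 662. Of 166 G protein-coupled receptors in all, 24 were higher and 29 lower (18 and 42 with a common total). That was 31.9% called, near the 29.1% of protein-coding genes. In the fit of the 4 libraries alone, GPER1 and PTGFR no longer passed (adjusted p from 0.053 to 0.0738).

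Of 47 receptor tyrosine kinases, 12 were higher and 6 lower (38.3% called), or 9 and 11 with a common total. EGFR rose from 7473 and 7969 to 13162 and 13898 (0.81), and the Wnt-linked PTK7 by 0.87, while the ephrin receptor EPHA4 fell from 2149.9 and 2231 to 934 and 703 (-1.43). Among 24 members of the TNF receptor superfamily, 4 were higher and 5 lower (37.5% called, 3 and 3 without control replicate 1). TNFRSF12A, the receptor of TWEAK, rose by 0.94 and TNFRSF19 fell by 1.05. Of 39 cytokine receptors, 6 were higher and 3 lower (3 and 9 with a common total). Their share called, 23.1%, was near the 23.5% of all genes and under the 29.1% of protein-coding genes. IFNGR2, a chain of the interferon gamma receptor, rose from 1733 and 1577 to 2628 and 2547. The call of EPHA4 was lost in the 4-library fit (adjusted p = 0.0507).

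Integrins, which join cells to matrix, had 9 of 23 members higher and 1 lower, with a median change of 0.19. The share higher was 39.1%, against 17.2% of protein-coding genes. Among protein-coding genes of 1000 or more normalized reads it was 33.1%, with a median change of 0.12. Integrins were not compared with genes of matched level. ITGA2, the alpha chain of a collagen receptor, rose from 4387 and 4843 to 14047 and 16122 (1.71, SE 0.10, adjusted p = 9.46e-06). ITGA3 (0.89), which pairs into a laminin receptor, ITGA5 (0.59), which pairs into the fibronectin receptor, and ITGB5 (0.55) were higher as well. The 1 that fell was ITGB8, a beta chain that binds latent TGFB, from 364 and 380.3 to 89 and 128 (-1.79). Guidance and Notch receptors had 7 of 24 higher (29.2%) and 2 lower. The plexins PLXNA2 (1.47) and PLXND1 (0.75), their co-receptor NRP2 (1.56) and NOTCH3 (1.05) rose, and PLXNA2 went from 1291 and 1191 to 3340.3 and 3547. With scaling to a common total, guidance and Notch receptors had 6 higher and 8 lower, while integrins had 8 and 2. Fitting the 4 libraries alone ended the calls of ITGA5, ITGB8 and NRP2 (adjusted p from 0.053 to 0.0657). FZD8, EGFR, EPHA4, TNFRSF12A, IFNGR2, ITGA5, ITGB8 and NRP2 share exon positions with another gene, mostly on the opposite strand, where reads cannot be told apart.

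**Figure D3:**
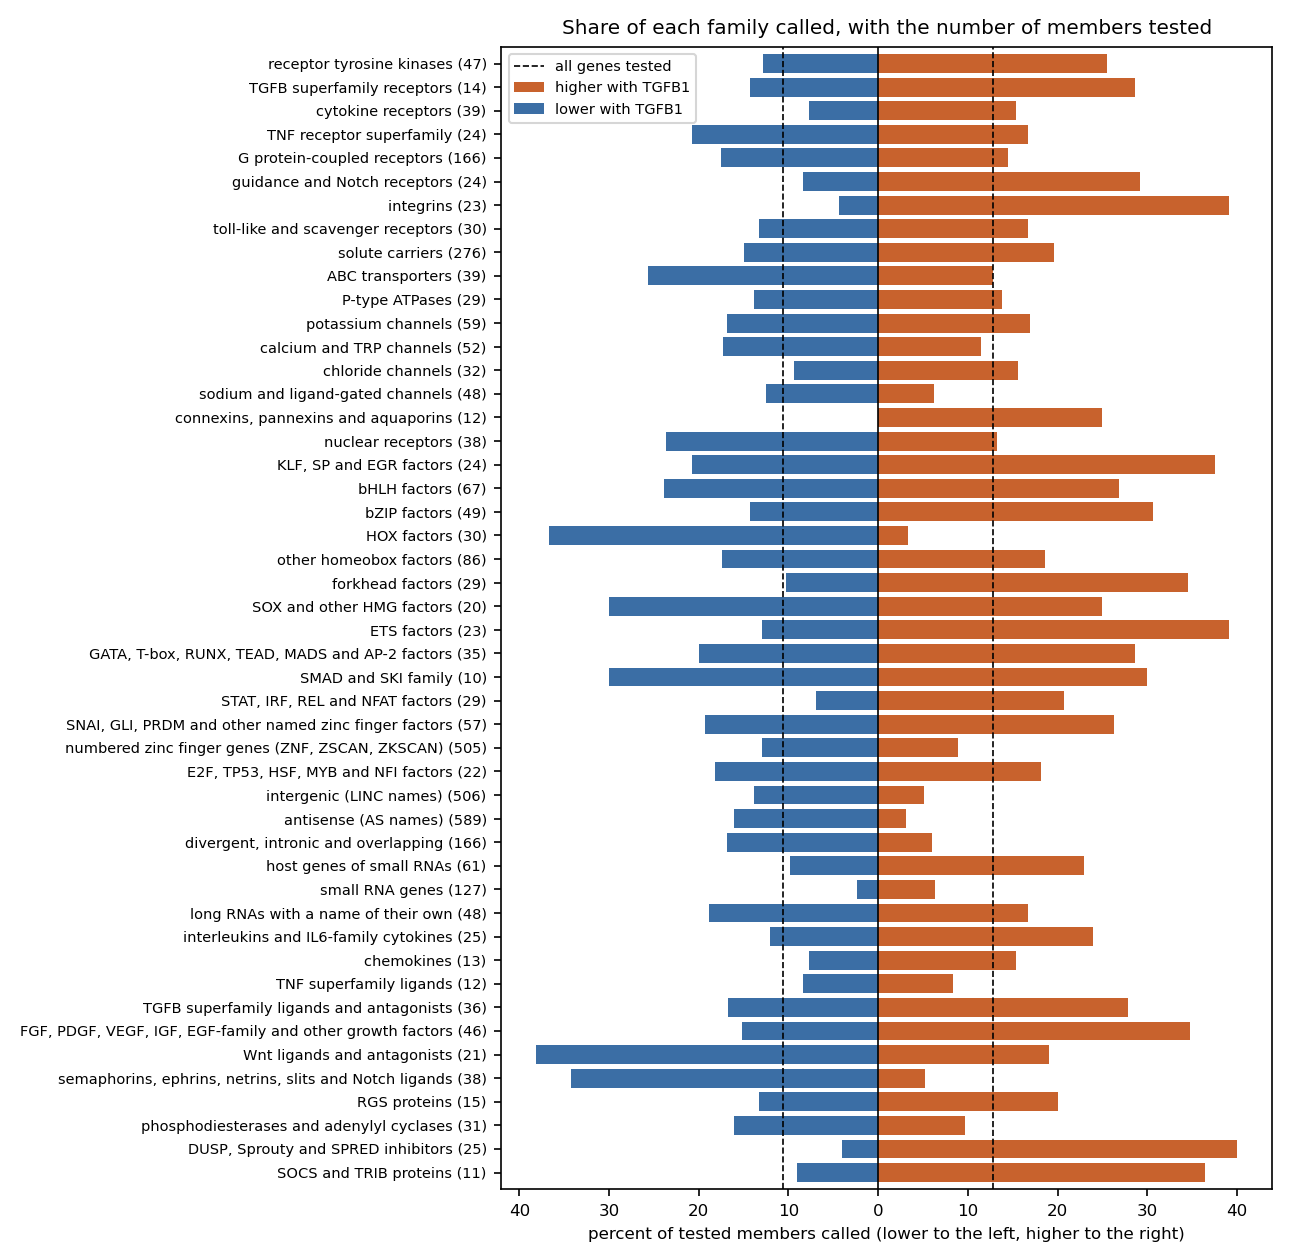
Percent of the tested members of each family called higher (right) or lower (left) with TGFB1, with the number tested in brackets and dashed lines for all genes tested (12.8% higher, 10.6% lower). Integrins lean to the right, and HOX factors, Wnt ligands and semaphorins with ephrins to the left. With a common total (1417 higher and 5399 lower over all genes) these had 8 higher and 2 lower, 1 and 12, 3 and 10, and 2 and 16. Without control replicate 1 they had 10 and 1, 1 and 10, 4 and 5, and 2 and 11.

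Transporters and channels had 90 of 547 members higher and 83 lower (31.6% called, near the 29.1% of protein-coding genes) around a median of 0.00. Among members that reached 50 normalized reads in either group, SLC19A2 (chromosome 1, 169463909 to 169485944), a thiamine transporter, had the largest rise, from 293 and 266 in controls to 2119 and 2226 with TGFB1 (2.96, SE 0.08, adjusted p = 2.05e-07). Of 276 solute carriers, 54 were higher and 41 lower (34.4% called). These counts were 34 and 86 with a common total, and 38 and 23 or 35 and 24 leaving out control replicate 1 or 2. SLC7A5, which carries large neutral amino acids, rose from 6492 and 6222 to 13612 and 15126 (1.17). The phosphate carrier gene SLC20A1 rose by 0.81 and SLC4A7, for sodium and bicarbonate, by 0.80. SLC7A14, in the same family as SLC7A5, fell from 512 and 483 to 126 and 138 (-1.91). AQP1, a water channel, had 62.5 and 26.4 in controls and 212 and 204 with TGFB1, so its controls differed widely although the groups did not overlap. Of the P-type ATPases ATP10A, a lipid flippase, rose from 1878 and 2078 to 5585 and 7049. The fit of 4 libraries did not call AQP1 (adjusted p = 0.108).

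Of 59 potassium channel genes, 10 rose and 10 fell (6 and 13 with a common total, 6 and 7 leaving out control replicate 2). That was 33.9% called, against 29.1% of protein-coding genes. KCNH1, a voltage-gated channel, rose from 541 and 367 to 1994 and 1993 (2.16). KCNN2 (chromosome 5, 114055926 to 114496500), a channel opened by calcium, fell from 343 and 291 to 41 and 43 (-2.88, SE 0.15, adjusted p = 7.62e-06), and KCNJ8, a subunit of ATP-sensitive channels, from 235 and 278 to 57.9 and 63.9. P2RX7, an ATP-gated cation channel, had 51.3 and 64.2 in controls and 8.47 and 8.6 with TGFB1 (-2.61). TRPC6, a cation channel of the TRP family, fell from 291 and 269 to 63.6 and 45.5 (-2.36). The sodium channel SCN8A fell by 0.66, and the calcium channel subunit CACNB3 by 0.56.

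Of the 5 subunit genes of the volume-regulated anion channel, LRRC8A and LRRC8C were higher, and LRRC8B (-0.55), LRRC8D (0.15) and LRRC8E (-0.43) did not pass. LRRC8A, the obligatory subunit, rose from 2735 and 2489 to 5665 and 5949.6 (1.15, adjusted p = 2.92e-05), and LRRC8C from 1542 and 1588 to 3259.8 and 3349 (1.08). ABC transporters had 5 of 39 higher and 10 lower (38.5% called, against 29.1% of protein-coding genes, and 2 and 15 with a common total). The cholesterol exporter ABCA1 was up by 0.66 and ABCB6 down from 475 and 464 to 208 and 247. For transporters and channels as a class, there were 55 higher and 159 lower with a common total, and leaving out control replicate 1 gave 69 and 49 (replicate 2, 62 and 53). Another gene shares exon positions with SLC7A5, SLC7A14, AQP1, KCNH1, KCNN2, KCNJ8, SCN8A, LRRC8C and ABCB6.

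Transcription factors had 171 of 1024 members higher and 167 lower (33.0% called, against 29.1% of protein-coding genes), with a median of -0.07. With a common total they had 105 and 357, and leaving out control replicate 1 gave 135 and 111. EGR2 (chromosome 10, 62811996 to 62919900), a zinc finger factor of the early growth response family, had 17.5 and 10.8 normalized reads in controls and 3805 and 3647 with TGFB1. Its change of 7.98 (SE 0.18, adjusted p = 1.43e-07) was the largest of any gene tested. EGR3 rose from 25 and 18 to 109 and 95.9 (2.21), KLF10, known as a TGFB-inducible early gene, from 1021 and 895 to 4734 and 3875 (2.16), and KLF7 by 0.97. Of 24 KLF, SP and EGR factors, 9 were higher and 5 lower (58.3% called, 9 and 8 with a common total, 8 and 3 leaving out control replicate 1).

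Of the AP-1 genes, JUNB and FOSB rose most, FOSL1 (0.41) was higher, JUND (-0.28) lower, and FOS (0.40) and JUN (0.15) did not pass. JUNB (chromosome 19, 12791486 to 12793315) went from 258 and 250.1 to 3138 and 3207 (3.64, SE 0.08, adjusted p = 1.43e-07), and FOSB from 17.5 and 16.8 to 181 and 168 (3.27). The small Maf genes MAFF (1.23) and MAFK (1.48) and CREB3L2 (1.14), a membrane-bound factor of secretory cells, were higher. In all, bZIP factors had 15 of 49 higher and 7 lower (44.9% called, against 29.1% of protein-coding genes). With a common total this became 7 and 14, and leaving out control replicate 2 gave 12 and 3. In the 300-base promoter windows of EGR2, FZD8 and JUNB (RefSeq, GRCh38.p14, 250 bases before to 50 after the start) neither strand held the AP-1 letters TGANTCA, the SMAD letters CAGACA, a CArG box or the cyclic AMP response element TGACGTCA. Of 27305 promoter windows 7.76%, 16.8%, 1.29% and 1.98% held them, in that order. Their absence says only that these letters are not in these windows.

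Basic helix-loop-helix factors had 18 of 67 higher and 16 lower (14 and 22 with a common total). That was 50.7% called, against 29.1% of protein-coding genes. BHLHE40, a repressor tied to the circadian clock and hypoxia, rose from 629 and 550.0 to 4415 and 4493 (2.92, adjusted p = 1.47e-07), and HIF1A from 12076 and 12152 to 25136 and 24158 (1.02). MSC, which encodes musculin, rose from 88.8 and 76.2 to 428 and 495. In the other direction, MITF (chromosome 3, 69739464 to 69968336), best known from melanocytes, fell from 1026 and 1063 to 222 and 211 (-2.26, SE 0.07, adjusted p = 5.6e-07). The melanocyte markers, MITF among them, summed to 1034 and 1077 in controls and 237.3 and 222.5 with TGFB1, and 1 of the 4 tested was lower. MLANA and PMEL were at 0 to 1.23 and 8.75 to 14.1 normalized reads in the 4 libraries, and the part of other cells in the fall of MITF was not tested. SIM1 fell from 3532 and 3890.4 to 1114 and 1073 (-1.76), ATOH8 from 1022 and 739.6 to 209 and 113 (-2.49) and AHRR, the repressor of the aryl hydrocarbon receptor, from 3721 and 3785 to 1454 and 1489. With the 4 libraries alone, ATOH8 missed the threshold (adjusted p = 0.0746).

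Nuclear receptors had 5 of 38 higher and 9 lower (36.8% called, against 29.1% of protein-coding genes, and 5 and 18 with a common total). The vitamin D receptor VDR rose from 702 and 738 to 2538 and 2941 (1.92, adjusted p = 5.12e-06) and PPARD by 1.44, whereas NR1D2, a clock repressor, fell from 1486 and 1712 to 684 and 645 (-1.26). Of 29 forkhead factors 10 were higher and 3 lower (44.8% called, 7 and 6 with a common total, 9 and 1 leaving out control replicate 1). FOXP1 led them, from 3133 and 3156 to 9305 and 9256 (1.56). ETS factors had 9 of 23 higher and 3 lower (52.2% called, 6 and 5 with a common total), with ETV6 (1.14) and ELK3 (0.99) among them. Both SOX8, from 10.0 and 12 to 80.5 and 77.4, and SOX9, from 301 and 311 to 653 and 704, were higher, while TCF7L2, a Wnt effector, fell by 1.05.

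MYOCD, whose protein myocardin activates smooth muscle genes, went from 705 and 757 to 2186 and 2299.5 (1.62), and MEF2D from 1557 and 1402 to 3027 and 3235 (1.08). The teashirt genes went apart, with TSHZ3 up from 655 and 675 to 2249 and 2583 (1.86) and TSHZ1 down from 2953 and 3035 to 1387 and 1336 (-1.14). TFAP2A (-1.19), NFIA (-1.21), MEIS2 (-1.02) and SHOX2 (-1.32), known from development, were lower. NFKB1 rose by 0.84 and STAT2 fell by 0.54. The 505 numbered zinc finger genes tested had 45 higher and 65 lower (21.8% called, against 29.1% of protein-coding genes). The balance was 84 and 37 with median centring, 13 and 185 with a common total, and 25 and 29 or 23 and 26 leaving out control replicate 1 or 2. The same limit of shared exon positions holds for EGR3, JUNB, MAFK, BHLHE40, HIF1A, MSC, AHRR, VDR, FOXP1, ELK3, TCF7L2, MYOCD, TFAP2A, MEIS2 and SHOX2.

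Of 30 HOX factors, 11 were lower (36.7%, against 11.9% of protein-coding genes) and 1 was higher, with a median change of -0.93. Among protein-coding genes of 50 to 200 normalized reads 18.6% were lower. HOX factors were not compared with genes of matched level. HOX genes lie in 4 clusters and set positional identity in fibroblasts. In the HOXA cluster on chromosome 7 all 11 genes tested had a change below 0, between -2.56 and -0.93, and 9 were called lower. HOXA13 fell from 2418 and 2101 to 575 and 441 (-2.16, SE 0.12, adjusted p = 1e-05), HOXA10 from 1013 and 963 to 436 and 369 (-1.30) and HOXA11 from 698 and 692 to 326 and 379 (-0.98). HOXA9 had 328 and 390.5 in controls and 162 and 194 with TGFB1. HOXA2 to HOXA6 were low, at 45.0 or less in every library.

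In the HOXD cluster on chromosome 2, 0 of 8 were called, with a median of 0.31. There 2 were called higher without TGFB1 replicate 2, and 1 with the replicate block, median centring, pseudocount 5 or a mean of at least 50. HOXD10 had 307 and 225 in controls and 497 and 363 with TGFB1 (0.69, adjusted p = 0.0604). HOXC had 1 of 8 lower, HOXC6 (-1.43), and HOXB had HOXB2 higher (1.13) and HOXB13 lower (-1.61) of 3. The remaining HOXB gene, HOXB9, was at 0 in all 4 libraries, and HOXD1 was at 0 to 2.82. Both were tested only through celastrol libraries. The division by cluster was made after the values were seen, the difference between clusters was not tested, and neighbouring HOX genes share exon positions with each other and with antisense RNAs such as HOTTIP. In the fit of 4 libraries 3 HOXA genes were called lower, and with 1 library left out 8 to 10 were.

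**Figure D4:**
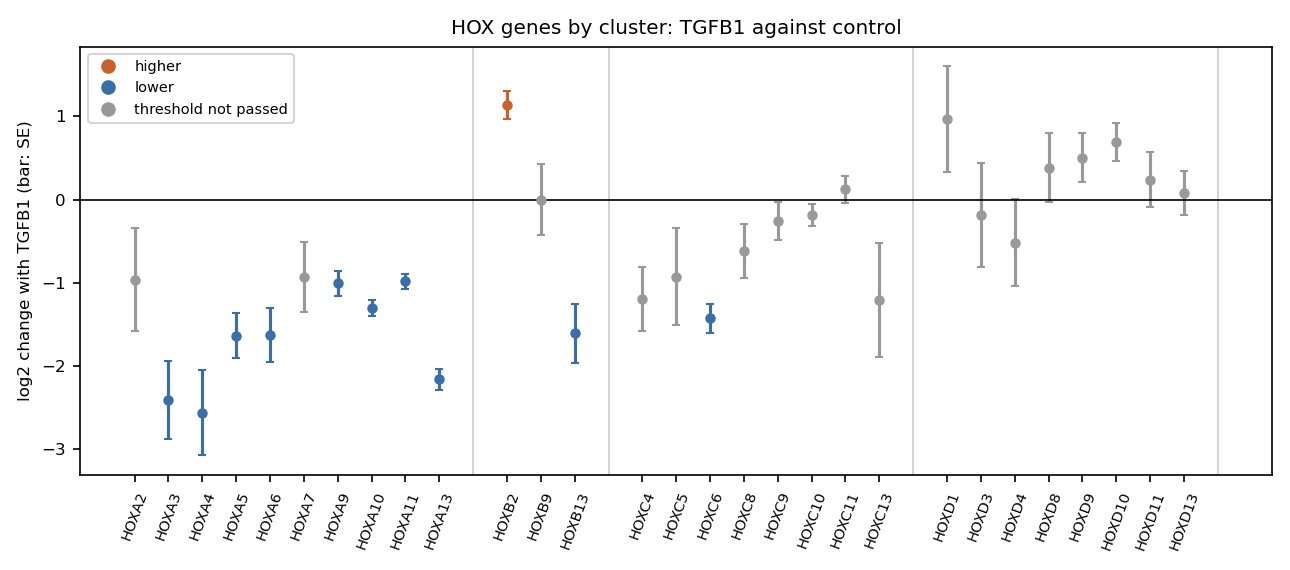
Change in log2(value + 1) with TGFB1 for HOX genes, in the order of the 4 clusters, with bars for the SE of the fit. The HOXA genes shown all lie below 0, down to -2.56, while HOXD genes lie on both sides of 0.

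Noncoding RNAs had 84 of 1497 members higher and 211 lower (19.7% called), with a median change of -0.19. Of all long noncoding RNA genes 15.4% were called, and of all genes 23.5%. Without control replicate 1, 120 were lower, and without control replicate 2, 131. Among host genes of small RNAs, 14 of 61 were higher and 6 lower (32.8% called, 10 and 14 with a common total, 12 and 3 leaving out control replicate 1). Host genes carry a small RNA, such as a miRNA, in an intron or exon, and the mature miRNAs themselves were not measured. Sequences from 4 RNAs that rose are shown for their seeds, the bases 2 to 8 that pair with targets, in capitals (RefSeq, GRCh38.p14). Of these RNAs, DNM3OS was counted with the long RNAs that have a name of their own, not among the 61. MiR-503 lies inside MIR503HG and miR-424 within 2000 bases of it, miR-31 inside MIR31HG, miR-181a inside MIR181A2HG, and miR-199a and miR-214 inside DNM3OS.
miR-503-5p: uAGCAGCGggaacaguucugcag
miR-424-5p: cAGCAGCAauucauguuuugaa
miR-31-5p: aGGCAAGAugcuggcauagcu
miR-181a-5p: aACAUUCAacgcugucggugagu
miR-199a-5p: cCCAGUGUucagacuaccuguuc
miR-214-3p: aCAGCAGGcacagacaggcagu

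MIR503HG (chromosome X, 134543119 to 134546642) rose from 199 and 258 normalized reads in controls to 1685 and 1615 with TGFB1 (2.86, SE 0.13, adjusted p = 3.43e-06). It shares exon positions with the hairpin of miR-424. MIR31HG (chromosome 9, 21453802 to 21559900) went from 368 and 458 to 2157 and 2802 (2.58, SE 0.14, adjusted p = 9.4e-06). MIR181A2HG was low in controls, at 5.0 and 10.8, and reached 70.6 and 54.1 (2.90). DNM3OS, which holds miR-199a and miR-214, rose from 783 and 768 to 1491 and 1499 (0.95). MIR100HG (0.81) and MIR22HG (0.89) were higher as well. CYTOR (1.10) and MIR4435-2HG (0.98) rose by similar amounts and are near-identical copies on chromosome 2, so reads may have been shared between them. In the 4-library fit the call of MIR181A2HG was lost (adjusted p = 0.0722). MIR503HG, MIR31HG, DNM3OS, MIR100HG, MIR22HG, CYTOR and MIR4435-2HG overlap exons of another gene, their small RNAs included.

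Of all long noncoding RNA genes 11.3% were lower. Antisense RNAs had 18 of 589 higher and 95 lower (16.1%). Intergenic RNAs with LINC names had 26 of 506 higher and 70 lower (13.8%). The lower counts were 168 and 106 with a common total, 55 and 44 leaving out control replicate 1, and 64 and 41 without control replicate 2. LINC01013 rose from 21.3 and 22.8 to 137 and 139 (2.59), and LINC00472 fell from 2475 and 2539.7 to 1184 and 1158 (-1.10, adjusted p = 1.03e-05). FENDRR, a long RNA named for its neighbour FOXF1, fell from 790.4 and 716 to 342 and 305 (-1.22). Since it is not stated whether counting used the strand, reads of an antisense RNA and of its partner cannot be told apart where their exons overlap.

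SOCS2-AS1 fell from 111 and 93 to 25.4 and 27 (-1.92), and SOCS2, a suppressor of cytokine signalling, from 1006 and 984 to 127 and 206 (-2.61). MSC-AS1 rose by 1.60 beside MSC (2.47), FOXP1-IT1 by 1.81 beside FOXP1 (1.56), and SH3RF3-AS1 by 2.45 beside SH3RF3 (0.74). MCM3AP-AS1 and its partner went in opposite directions. The antisense RNA fell from 209 and 212 to 41 and 57.8 (-2.09, adjusted p = 6.87e-05), while MCM3AP rose from 3757 and 3692 to 4739.5 and 4934 (0.38, adjusted p = 0.00181). EIF1B-AS1 fell by 1.72, with EIF1B at 0.27 (adjusted p = 0.0787). Among antisense, divergent and intronic RNAs with a tested coding partner, those that were lower had a partner that was lower for 31, higher for 12 and not called for 67. For those that were higher, the partner was higher for 12, lower for 2 and not called for 11. Beside RNAs that were not called, the partner was higher for 143, lower for 77 and not called for 331. The differences between these splits were not tested.

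The balance of calls differed between levels. Among genes with a mean of 50 to 200 normalized reads over the 4 libraries, 5.40% of 630 long noncoding RNA (lncRNA) genes were higher and 16.8% lower, and for 1768 protein-coding genes the shares were 6.84% and 18.6%. At 1000 or more, 27.3% of 66 lncRNA genes were higher and 15.2% lower, against 33.1% and 7.71% of 5291 protein-coding genes. Over all levels, 4.11% of lncRNA genes and 17.2% of protein-coding genes were higher.

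**Figure D5:**
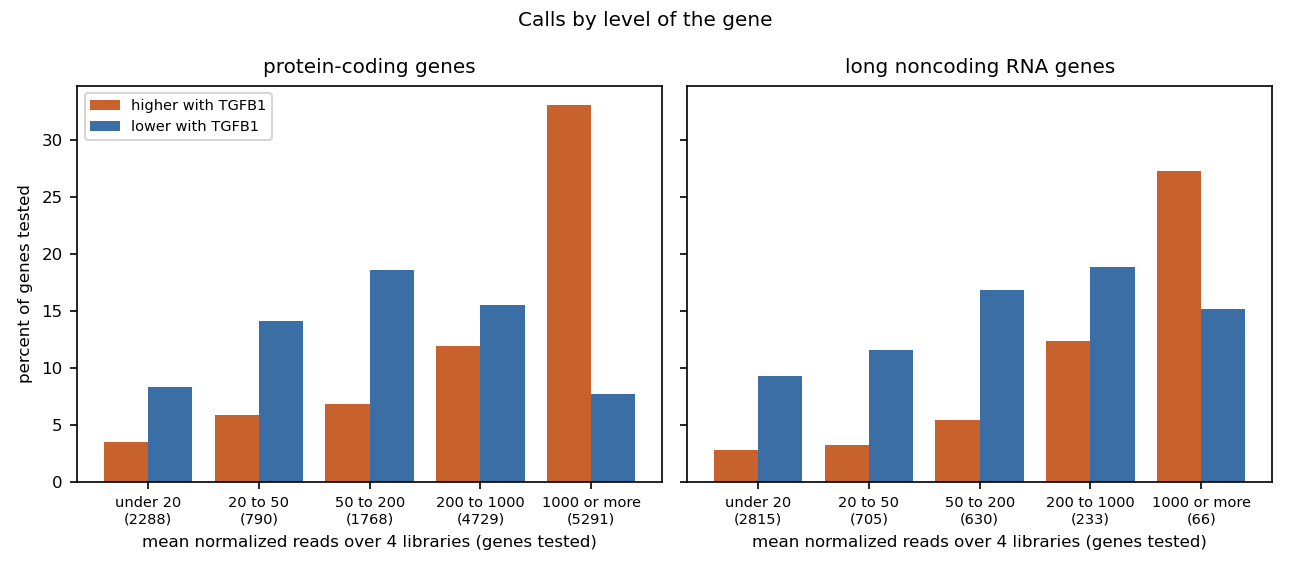
Percent of protein-coding genes (left) and lncRNA genes (right) called higher or lower with TGFB1, by mean normalized reads over the 4 libraries, with the number tested in brackets. In both kinds of gene, lower calls outnumber higher calls below 1000 normalized reads and higher calls outnumber lower ones from 1000 up.

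Secreted ligands had 41 of 191 members higher and 39 lower (41.9% called, against 29.1% of protein-coding genes). Of the interleukin 6 family, LIF, IL11, CLCF1 (1.71) and IL6 (2.05, adjusted p = 3.72e-05) rose, and CNTF (-0.15) and CTF1 (0.02) did not pass. LIF went from 266 and 259.7 to 9226 and 11612 (5.29, adjusted p = 1.43e-07) and IL11 from 334 and 302 to 6503 and 7363 (4.44). HBEGF, an EGFR ligand, rose from 343 and 349.7 to 6873 and 7971 (4.41), and its receptor gene rose too, as given above. ANGPTL4 reached 244 and 294 from 7.5 and 2.4, and TNFSF15 455 and 451 from 18.8 and 11.4. Growth factors had 16 of 46 higher and 7 lower (15 and 4 without control replicate 1, 14 and 4 without 2), among them VEGFA (1.71), NRG1 (1.24) and GDNF (2.21). In the TGFB superfamily, INHBA, the subunit of activin A, rose from 1931 and 1603 to 9747 and 9424 (2.44), GDF6 by 2.09 and the activin inhibitor FSTL3 by 1.83. The antagonists FST, from 2874 and 3021 to 1056 and 1029.9 (-1.50), and NOG (-1.19) were lower.

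Wnt ligands and antagonists had 4 of 21 higher and 8 lower (38.1% lower, and 4 and 5 genes without control replicate 1). WNT5B was up by 1.02 and SFRP1, a secreted Wnt antagonist, down by 0.54. Semaphorins, ephrins, netrins, slits and Notch ligands had 2 of 38 higher and 13 lower (34.2%). Of protein-coding genes 11.9% were lower. SEMA7A, a membrane-anchored semaphorin that binds integrins, rose from 978 and 971 to 8737 and 10003 (3.26), while SEMA6D (-1.33), SEMA3D (-1.08), SEMA4B (-1.14) and SEMA3A (-0.86) fell. SEMA3A had 2458 and 2889 in controls and 1564 and 1374 with TGFB1. The lower count of the semaphorin and ephrin family was 16 with a common total and 11 with median centring. Without the 4 celastrol libraries in the fit, SEMA3A and NOG missed the threshold (adjusted p from 0.0626 to 0.133). Exons of another gene overlap LINC00472, SOCS2, CLCF1, LIF, ANGPTL4, VEGFA and GDNF.

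Intracellular regulators of signalling had 33 of 153 members higher and 22 lower, or 21 and 49 with a common total. Their share called was 35.9%, against 29.1% of protein-coding genes. RGS proteins, which switch off G proteins, included RGS16, at 5.0 and 2.4 in controls and 60.7 and 49.2 with TGFB1 (3.62), and RGS4, from 659 and 851 to 2924 and 3036 (1.99). DUSP, Sprouty and SPRED inhibitors of MAP kinase signalling had 10 of 25 higher and 1 lower, with SPRY4 up from 1483 and 1105 to 3999.8 and 3965 and DUSP7 by 0.90. With a common total these became 5 higher and 6 lower. Of SOCS genes, SOCS3 rose from 647 and 666 to 1186 and 1290.5 (0.91) against the fall of SOCS2, and the pseudokinase genes TRIB1 (1.33) and TRIB2 (1.63) were higher. ARHGAP28 fell from 538 and 513 to 59.3 and 55.3 (-3.17, adjusted p = 2.99e-07), and ARHGEF40 rose from 2957 and 2982 to 8399.5 and 9389 (1.58). PDE5A, which degrades cyclic GMP, fell from 3279 and 3064 to 1208 and 1027 (-1.51). Exon overlap with another gene limits ARHGAP28, ARHGEF40 and PDE5A too.

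Outside these classes, COMP, a cartilage matrix protein, rose from 17.5 and 6.6 to 766 and 687 (5.94), and ST6GAL2, a sialyltransferase, from 61.3 and 27.6 to 1407 and 953 (4.78). ADAMTS1, a matrix protease, fell from 12675 and 11572 to 1398 and 1471 (-3.08, adjusted p = 1.47e-07). The keratinocyte marker DSP, for desmoplakin, rose from 1153 and 1140.3 to 3712 and 4061 (1.76, adjusted p = 1.81e-06), while KRT15 fell, KRT10 (0.12) did not pass and TP63 was at 0. The summed keratinocyte markers were 2095 and 2162 in controls and 4795 and 5034 with TGFB1, and the part of other cells was not tested.

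TGFB1 was also given with celastrol, in libraries that share none with the comparison above. The celastrol libraries listed 59 to 125 genes at 0, against 1878 to 2693 in the 4 libraries above, so genes with few reads are not on the same footing in both, and the part of this in the differences was not tested. There, 2 genes were called (0.00875%), 1 higher (FOSB, 0.00437%) and 1 lower (FOXD4L6, 0.00437%, a member of a family of near-identical copies), and 868 (3.8%) had an unadjusted p under 0.05. The 714 genes that rose past 2-fold with TGFB1 alone had a median change of 1.55 there and of 0.10 with celastrol, and the 1033 that fell had -1.58 and -0.01. The difference between both responses was called for 467 of the former (65.4%) and 469 of the latter (45.4%), against 11.3% of all genes tested (4.36% with a positive and 6.89% with a negative difference). These genes were chosen on the response to TGFB1 alone, which is part of that difference, so nothing is read from these shares or from the first of each pair of medians. EGR2 changed by 7.98 without and 0.43 with celastrol, KIT by -4.22 and -0.12, SLC19A2 by 2.96 and 0.57, and MIR503HG by 2.86 and 0.19.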

How the data were processed

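RNA of CCD-1077Sk skin fibroblasts was sequenced in 4 groups of 2 libraries after 6 h. Reads were aligned with STAR 2.7.3a to hg38 in Partek 10.0.22, and DESeq2 is named too, per the submitters' processing notes. The deposited values are signal, namely gene counts divided by 1 size factor a library. Each library's smallest step gave its estimated reads, and 73.6% to 76% of values under 1000 estimated reads were whole multiples (tolerance 0.02), too few for a test on counts. The 24598 genes in the table were reduced to the 22866 that reached 10 normalized reads in 2 or more libraries. log2(value + 1) was fitted with limma 3.58.1 (R 4.3.3, trend, 4 residual degrees of freedom) over 8 libraries with Benjamini-Hochberg adjustment at 0.05. Fold changes on this scale understate low genes. The fit was tested on simulated data, with a dispersion estimated from the replicates after a first, larger assumed one had missed the criterion set for recovery, which was then also relaxed. It recovered some but not all of the smaller changes.

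Positions are those deposited (hg38), with the end counted as the last base, after a check against GENCODE 29 by symbol. Named genes passed adjusted p under 0.05, did not overlap between groups and reached 50 normalized reads in either group: the 6 largest rises and falls of each class, up to 3 more per family by p, the pathway core, and the 5 largest rises and falls elsewhere. HOXA, HOXB and HOXD genes, partners, markers, LRRC8, AP-1 and interleukin 6 family members outside that rule were added after their values were seen. From the list of other homeobox factors, 11 names that are no homeobox genes were removed after the files were read. Some items are not reported here. The members and lists were chosen with earlier results of these data known. The sources used here do not say whether counting used strand.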

Additional observations from a re-analysis of the deposited data

Results flagged for a closer look

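The interaction test of the limma fit, adjusted over all genes, was read only for the largest rises and falls of some classes. These were receptors, transporters and channels, transcription factors and noncoding RNAs. For 18 of the genes reported the TGFB1 response differed between cells without and with celastrol, and MIR181A2HG did not pass (-2.03, adjusted p = 0.0563). Of all genes tested, 11.3% were called. The genes were chosen on part of that difference, so nothing is read from their number. On the log2 scale the response with celastrol minus that without was -7.54 for EGR2, -3.02 for JUNB and -2.23 for FOSB, and 2.34 for ATOH8 and 2.61 for ZNF608, all transcription factors. Among receptors the difference was -4.05 for FZD8, -2.50 for S1PR5, 4.10 for KIT and 2.22 for GPR1. Among transporters and channels it was -2.38 for SLC19A2, -2.10 for AQP1, -2.29 for KCNH1, 3.07 for KCNN2 and 2.65 for P2RX7. Among noncoding RNAs it was -2.67 for MIR503HG, -2.63 for LINC01013, 2.09 for MCM3AP-AS1 and 1.91 for SOCS2-AS1. Each difference has the sign opposite to the gene's response to TGFB1 alone, which is the side on which genes chosen for a large response would lie.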

How the results depend on the processing

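The counts of 2937 genes higher and 2427 lower became 1417 and 5399 with a common total, and 1064 and 620 with the 4 libraries alone. Median centring gave 4778 higher, and omitting the variance trend 1834 higher. Leaving out 1 library gave 1841 to 2606 higher and 1322 to 2225 lower. The lowest counts came without control replicate 2 (1841 higher) and control replicate 1 or 2 (1322 and 1406 lower). Receptors, 71 higher and 52 lower, had 31 and 14 with the 4 libraries, 92 lower with a common total, and 54 to 70 and 40 to 56 with 1 library left out. Transporters, 90 and 83, had 36 and 22, then 55 and 159 with a common total, and 62 to 86 and 49 to 71. Transcription factors, 171 and 167, had 84 and 59, then 105 and 357, and 129 to 163 and 111 to 169. Noncoding RNAs, 84 and 211, had 22 and 51, 348 lower with a common total, 135 lower with a mean of at least 50, and 57 to 74 and 120 to 196. The 2 genes called with celastrol became 1 with pseudocount 5, a mean of at least 50, no trend or the replicate block, and 0 with no filter, with median centring and with each library left out. The 2573 interaction calls became 1244 with no trend and 1189 to 2715 with 1 library left out (1624 and 1487 without control replicate 1 and 2, 1599 and 1312 without celastrol replicate 1 and 2, 1397 and 1189 without TGFB1 with celastrol replicate 1 and 2). SOCS6 turned to -0.03 and TGFBR2 to -0.19 with a common total. Of 236 named genes called, 176 kept their call with the 4 libraries alone. With the replicate number as a block, 3590 genes were higher and 2952 lower and all 236 kept their call. Same-numbered libraries correlated at 0.171 to 0.233 in their deviations, but with 2 libraries a group the pairing is not established. The causes were not tested. Values near 1.8 to 4.24 normalized reads are at the limit of detection.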
